A study of Mus musculus with 16 samples.

Results

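The report compares break ends mapped after 10 Gy of gamma radiation with break ends in unirradiated cells, in cells in which HMGB1 was silenced. It uses 4 libraries of the 16 in the series, chosen by their titles: shHMGB1 at 10 Gy, replicates 1 and 2, and shHMGB1 untreated (0 Gy), replicates 1 and 2. AB22 is a mouse malignant mesothelioma line, a tumour of the lining of the chest and abdomen. All 4 libraries came from AB22 cells that carry the doxycycline-induced pTRIPZ-shHMGB1 hairpin, were selected with puromycin, kept in doxycycline for days and held in G1. Dose is the only difference between the groups that the labels give. The other 12 libraries hold shHMGB1 cells at 3 and 5 Gy and cells with the control hairpin shCTRL at 0, 3, 5 and 10 Gy, with 2 libraries numbered as replicates in each of the 8 groups. The labels do not say that replicates came from separate cultures, so p-values measure the spread between these libraries, which may be technical. They describe cells transduced with viral particles and name no clone, and they give neither the number of cells per library nor the time between irradiation and fixation. Break ends carry no RNA level, so neither the silencing of Hmgb1 nor the mesothelial origin could be checked in these libraries.

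BLISS ligates an adapter to free DNA ends inside fixed cells and reads the genomic position next to each adapter, so it maps breaks that are present at fixation. HMGB1 is an abundant chromatin protein that bends DNA and is known to promote nucleosome assembly. Gamma rays break DNA along their tracks through the nucleus, while ends in unirradiated cells are known to gather at active promoters, transcribed genes, repeats and fragile sequences. Because a count is scaled to its library, each value below is a share of the mapped ends and not a number of breaks per cell, and lower shares at some places and higher shares at others are parts of the same sum.

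The unirradiated libraries held 691644 and 881445 ends on the main chromosomes, and the 10 Gy libraries held 1010888 and 826051. Within replicate number the 10 Gy total was 1.46 times the 0 Gy total in replicate 1 and 0.937 times in replicate 2, so the totals did not move together (exact permutation test, two-sided, p = 0.667, n = 2). With 2 libraries against 2, the smallest p this test can give is 0.333, and each share below whose groups do not overlap has that p. After thinning to 691644 ends, each occupied position held 1.66 and 1.61 ends at 0 Gy and 1.52 and 1.58 at 10 Gy. Molecules thus lay on slightly more positions in both irradiated libraries. Over all 16 libraries the totals ran from 131430 to 1010888 ends.

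The small nucleolar RNA (snoRNA) genes took a smaller share of ends at 10 Gy in both replicates. These genes encode short RNAs, most of them cut from introns of host genes, that guide the chemical modification of ribosomal RNA. They held 2.73% and 2.99% of ends at 0 Gy (mean 2.86% ± 0.186 SD, n = 2) and 2.09% and 1.73% at 10 Gy (mean 1.91% ± 0.251 SD, n = 2). The 10 Gy share was 0.765 of the 0 Gy share in replicate 1 and 0.579 in replicate 2, and the groups do not overlap. In a fit of small RNA genes beside protein-coding and long noncoding genes, 194 of 1507 annotated snoRNA genes passed the filter on low counts. In 116 of the 194, or 59.8%, both 10 Gy libraries lay below both 0 Gy libraries, against 19.2% of all 13066 features, and in 2 both lay above, against 16.4%. The median log2 fold change was -0.54 for the snoRNA genes and 0.01 for all features. Other small RNA classes had few tested genes. Medians were -0.53 for 11 small nuclear RNA genes (45.5% lower in both 10 Gy libraries), -0.46 for 10 microRNA genes (60%) and -0.34 for 4 ribosomal RNA genes (50%). They were -0.18 for 7 genes of miscellaneous RNAs (14.3%) and -0.12 for 9 Cajal body RNA genes (0%). Lower values were thus not confined to snoRNA genes. None of the 13066 features passed at an adjusted p under 0.05 by edgeR's quasi-likelihood test (0.0% in either direction), and none by DESeq2. At an unadjusted p under 0.05 edgeR gave 358 features (2.74%), among them 38 snoRNA genes, and DESeq2 gave 171.

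The ends in snoRNA genes gathered at the edges of the mature RNA. The first and last 10 bases make up 18.8% of the length of the 194 genes. They held 34.4% and 23.2% of the snoRNA ends in 0 Gy replicate 1, 35.7% and 25.8% in 0 Gy replicate 2, 31.9% and 21.4% in 10 Gy replicate 1, and 35.5% and 22.4% in 10 Gy replicate 2. The share at the last 10 bases was lower in both 10 Gy libraries, and that at the first 10 bases overlapped between the groups. In CPM (ends per 1000000 ends of the library on the main chromosomes), the first 10 bases held 9726 and 11022 at 0 Gy and 6923 and 6469 at 10 Gy, and the part between the edges held 11970 and 11852 against 10122 and 7657. All parts of the genes were therefore lower at 10 Gy.

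The sequences below are the snoRNAs at which ends piled up, from GENCODE M21 transcripts (GRCm38, which is mm10), written 5' to 3' on the gene's own strand. The capital marks the base with the most ends over the 4 libraries. The first 5 each hold the most ends of any snoRNA gene in a region dense with ends. The other such region, at Snord65, is not shown, as the leading base there held 11.1% of the ends in that gene at 0 Gy. Snord45b had a small p (0.000979 unadjusted, edgeR). All were chosen after their values were seen. Snord87 lies at chr1:9942463-9942549 in Snhg6, Snord83b at chr15:80078498-80078591 in an intron of Rpl3, Snord99 at chr4:132310691-132310764 in Snhg12, Gm25789 at chr1:161038308-161038383 in Gas5 and Gm25894 at chr19:8724251-8724325 in Snhg1. Snord45b lies at chr3:153910563-153910633 in Rabggtb.
Snord87: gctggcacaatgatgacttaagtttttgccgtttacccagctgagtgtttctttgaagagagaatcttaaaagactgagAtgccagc
Snord83b: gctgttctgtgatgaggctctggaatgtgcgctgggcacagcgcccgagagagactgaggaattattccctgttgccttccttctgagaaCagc
Snord99: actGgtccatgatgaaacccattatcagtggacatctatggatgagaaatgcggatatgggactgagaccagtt
Gm25789: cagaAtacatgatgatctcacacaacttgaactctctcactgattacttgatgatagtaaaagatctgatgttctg
Gm25894: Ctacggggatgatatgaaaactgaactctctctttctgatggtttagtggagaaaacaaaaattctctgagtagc
Snord45b: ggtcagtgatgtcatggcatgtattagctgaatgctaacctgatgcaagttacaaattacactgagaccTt
C and D boxes are the motifs that bind the proteins of this snoRNA class. The letters TGATGA of the C box were found in 4 of the 6 and the letters CTGA of the D box in all 6, on the gene's strand. In the 6 printed, the marked base lies within 8 bases of an end of the RNA. Where both motifs were found, it lies before the C box letters or after the last D box letters. In Snord65, which is not printed, the leading base was base 23 of 72, away from both ends.

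Single bases carried much of the signal. Base 80 of Snord87 held 1420 and 2478 CPM at 0 Gy and 1114 and 1389 at 10 Gy, and it took 92.0% of the ends in that gene at 0 Gy. The 10 Gy level was lower in both pairs, and the highest value belonged to 0 Gy replicate 2. Base 91 of Snord83b held 1102 and 1068 CPM at 0 Gy and 789 and 506 at 10 Gy. Base 5 of Gm25789 held 638 and 646 against 442 and 373, and base 1 of Gm25894 held 506 and 581 against 376 and 241. At none of these 4 bases did a 10 Gy library reach the level of a 0 Gy library, although at Snord87 10 Gy replicate 2 came close to 0 Gy replicate 1. Over the whole gene, Snord45b had a log2 fold change of -1.31 ± 0.382 (SE) and Snord83b of -0.62 ± 0.321, and neither passed the adjusted test. The protocol copies each ligated end into RNA by in vitro transcription and makes the library from that RNA. Whether any molecules at the edges of snoRNAs came from the cells' own RNA was not tested.

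Ends in snoRNA host genes and in ribosomal protein genes were fewer at 10 Gy within the snoRNA genes they hold, and the rest of the same genes did not share that difference in its size. Of the 20 snoRNA host genes listed, 19 were tested, none passed (adjusted p over all genes, edgeR), and 14 were lower in both 10 Gy libraries, against 18.6% of all 12831 genes tested; 1 of the 19 had a log2 fold change above 0, and the median was -0.50 against -0.0021 for all genes. Snhg1 held 2999 and 3408 CPM at 0 Gy and 2146 and 1734 at 10 Gy. Gas5, a noncoding host gene, held 3902 and 4191 against 3001 and 2664, with no overlap. Of 82 ribosomal protein genes, 47 were tested, none passed, and 23 were lower in both 10 Gy libraries and 1 higher (background 16.7%), with a median of -0.45. Rpl3 held 1382 and 1330 CPM at 0 Gy and 1050 and 729 at 10 Gy. All 19 hosts and 28 of the 47 ribosomal protein genes hold a snoRNA gene. Summed over the hosts, ends within snoRNA genes and 100 bases on each side came to 13530 and 15193 CPM at 0 Gy and 10013 and 9027 at 10 Gy, which is 0.740 and 0.594 of the 0 Gy level. The rest of the same genes held 364 and 361 at 0 Gy and 344 and 360 at 10 Gy, or 0.945 and 0.997. For ribosomal protein genes the snoRNA part held 8898 and 8725 at 0 Gy and 6406 and 4938 at 10 Gy, while the rest held 515 and 520 against 539 and 591. The rest of the ribosomal protein genes thus stood higher at 10 Gy in both pairs. With ends outside the dense regions the list medians moved little, to -0.48 for the hosts and -0.42 for the ribosomal protein genes, while single genes whose pile-up is a dense region moved more, Rpl3 to 0.06 and Snhg1 to 0.02. With each position counted once the medians were -0.29 and -0.10, smaller in both lists.

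**Figure D1:**
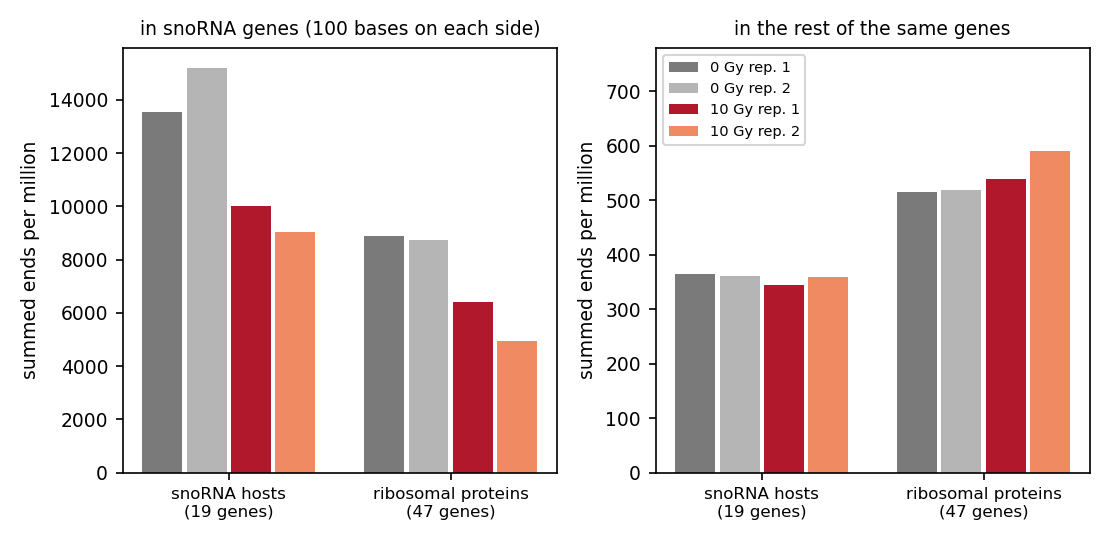
Summed ends in CPM (y axes, on different scales) in the 19 tested snoRNA host genes and the 47 tested ribosomal protein genes, for the 4 shHMGB1 libraries; the left panel counts ends in snoRNA genes with 100 bases on each side and the right panel the rest of the same genes. Bars are single libraries, so there is no error bar; the 10 Gy bars are below the 0 Gy bars on the left in both lists, and on the right the ribosomal protein genes stand at 515 and 520 at 0 Gy and at 539 and 591 at 10 Gy.

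A second kind of pile-up, which lies in no snoRNA gene, was also lower at 10 Gy. Dense regions are defined here as clusters that reach 1000 ends or more in some library, with 1 kb on either side. The 16 libraries gave 32 of them, and in 11 of them the cluster spans at most 20 bases. These 11 narrow pile-ups held 3.37% and 3.36% of ends at 0 Gy and 2.51% and 2.49% at 10 Gy, a ratio of 0.744 and 0.741. In all 11 both 10 Gy libraries lay below both 0 Gy libraries, against 14.8% of the 2610 regions and windows in the same fit, and their median log2 fold change was -0.50. None of the 11 has its leading base in an exon of the protein-coding and long noncoding genes used here, and exons of other gene types were not checked. A single base, chr11:55220251 in an intron of the amino acid transporter gene Slc36a1, held 6542 and 6341 CPM at 0 Gy and 4613 and 4893 at 10 Gy. Another, chr2:27127108 in an intron of Fam163b, held 4754 and 4596 against 3778 and 3785. In Cdhr2, a cadherin gene, chr13:54710935 held 2081 and 2330 against 1499 and 1263. The leading base in Macrod2, chr2:142055213, held 1828 and 1898 against 1601 and 1666, the smallest relative difference of the 11 (0.873 and 0.862 for its region). The 2 replicates of a dose lay close to each other at these bases, and the doses did not overlap at any of the 4.

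By contrast, the satellite-like repeat blocks on chromosomes 2 and 9 took a larger share of ends at 10 Gy. Satellites are long tandem repeats that form the heterochromatin beside centromeres. The chromosome 2 block, with the gene models Gm10800 and Gm10801, held 7.59% and 8.25% of ends at 0 Gy (mean 7.92% ± 0.461 SD, n = 2) and 8.71% and 10.1% at 10 Gy (mean 9.41% ± 0.984 SD, n = 2), 1.15 and 1.23 times the 0 Gy share. The chromosome 9 block, with Gm26870, Gm10718, Gm10717, Gm10722 and Gm11168, held 2.27% and 2.59% at 0 Gy and 2.84% and 3.26% at 10 Gy, which is 1.25 and 1.26 times. All 5 dense regions of the 2 blocks were higher in both 10 Gy libraries, against 31.2% of the 2610 regions and windows. Log2 fold changes of the 5 ran from 0.05 to 0.36, with a median of 0.14 for chromosome 2 and 0.26 for chromosome 9, and none passed the test. When each occupied position counted once, the medians were -0.23 and -0.04, so the higher share was seen for molecules only. On chromosome 2, a region with a core of 728 bases had 742 occupied positions over the 4 libraries, flanks included. Another with a core of 2303 bases had 1148. The direction thus differed between molecules and positions. Whether the number of occupied positions limits the medians by position was not tested. The files place each end at 1 position, and how reads that match several copies were treated is not given in the sources used here, so the copy is uncertain.

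The stretches below show the repeat, from the exon of each GENCODE model that holds its most used base (capital). The Gm10718 stretch lies at chr9:3024412-3024531 on the plus strand and the Gm10800 stretch at chr2:98666921-98667040 on the minus strand.
Gm10718: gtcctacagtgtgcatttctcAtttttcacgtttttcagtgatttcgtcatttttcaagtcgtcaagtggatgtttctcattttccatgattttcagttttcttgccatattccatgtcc
Gm10800: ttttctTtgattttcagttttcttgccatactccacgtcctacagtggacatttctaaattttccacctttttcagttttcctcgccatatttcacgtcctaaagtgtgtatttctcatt
The spliced Gm10718 transcript, 681 bases from 5 exons, matched itself best at an offset of 234 bases. There 62.6% of bases were identical, against a median of 30.9% over 320 offsets. The spliced Gm10800 transcript matched itself best at 225 bases, with 56.3%. Because introns are left out, these offsets are not distances along the genome. The marked base of Gm10800, chr2:98667034, held 2535 and 3604 CPM at 0 Gy and 4070 and 4702 at 10 Gy. That base stood higher at 10 Gy in both pairs, by 1.61 and 1.305 times. At chr9:3024433 in Gm10718 the values were 331 and 343 against 390 and 395.

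The ribosomal RNA repeat on chromosome 17 differed more between replicates than between doses. It held 5.07% of ends in 0 Gy replicate 1, 3.12% in 0 Gy replicate 2, 3.59% in 10 Gy replicate 1 and 1.85% in 10 Gy replicate 2. Within replicate number the 10 Gy share was 0.708 and 0.592 of the 0 Gy share, but the groups overlap, since both replicate 1 libraries exceeded 0 Gy replicate 2. The gene models there, Gm26917 and Gm42418, overlapped in the same way. A region at chr17:36230368-36232416, which holds no annotated gene, had the lowest ratios of the 32 dense regions, 0.329 and 0.224. It held 1242 and 372 CPM at 0 Gy and 409 and 83.5 at 10 Gy, again with replicate 1 above replicate 2 at each dose. Its log2 fold change was -1.75 ± 0.776 (SE, adjusted p = 0.987 by edgeR). With the replicate number as a block the adjusted p was 4e-07, and with the 4 libraries alone 0.0231. A region at chr3:5859337-5861803 held 0.963% and 1.11% at 0 Gy and 0.678% and 0.614% at 10 Gy. Of all 32 dense regions, 19 were lower in both 10 Gy libraries, 7 higher and 6 overlapped, and together they held 22.6% and 21.5% of ends at 0 Gy and 21.3% and 20.8% at 10 Gy.

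In the fit on dense regions beside 1 Mb windows none of the 2610 features passed in the higher or lower direction (0.0%, edgeR, 82 or 3.14% at an unadjusted p under 0.05; DESeq2 0 and 48). The same fit on the 4 libraries alone called 8 features lower. Among them were the pile-ups at Snord99, Snord83b, Snhg1 and Snord65, and the narrow pile-ups in Cdhr2 and at chr5:67110747. The others were the region on chromosome 17 and a 1 Mb window. In the fit on the 4 libraries the log2 fold change for the Snord99 region was -0.87 ± 0.141 (SE, adjusted p = 0.00236, edgeR). In that fit the spread is estimated from the 4 libraries only, while the fit on all 16 shares it with the other doses and with shCTRL.

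**Figure D2:**
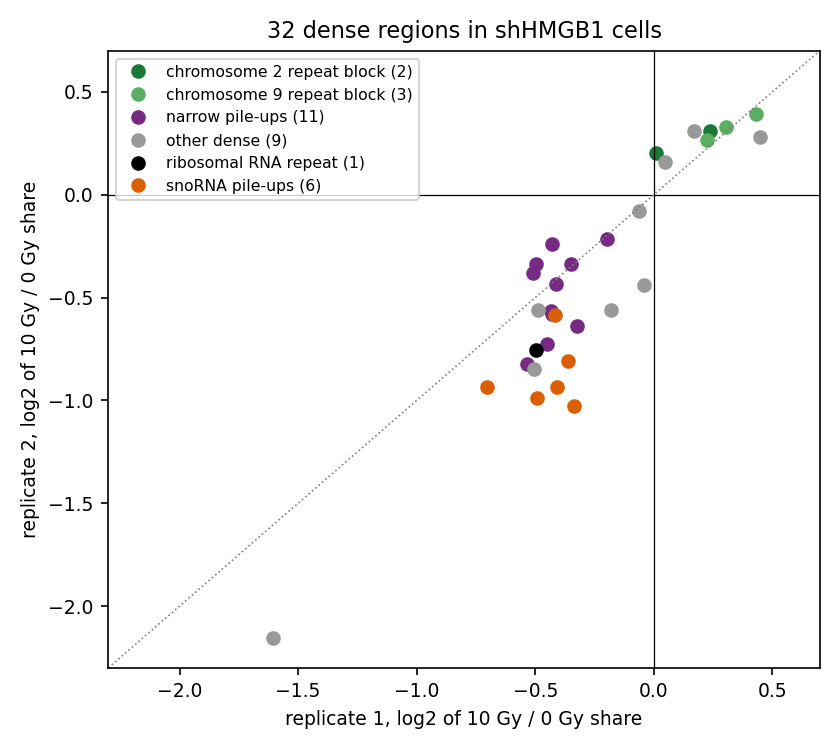
Log2 ratio of the share of ends at 10 Gy to that at 0 Gy for each of the 32 dense regions, replicate 1 on the x axis and replicate 2 on the y axis, shHMGB1 cells; each point is 1 region, coloured by kind. The 5 regions of the repeat blocks lie above 0 on both axes, the 11 narrow and 6 snoRNA pile-ups lie below 0 on both, and the farthest point is the region on chromosome 17 with ratios of 0.329 and 0.224.

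Exons of protein-coding and long noncoding genes took a smaller share at 10 Gy and intergenic sequence a larger one. With each end put in 1 class (within 1 kb of a protein-coding start site, then exon, intron and intergenic), exons held 14.1% and 12.02% at 0 Gy and 11.8% and 9.76% at 10 Gy, a difference of -2.27 and -2.25 percentage points. Intergenic sequence held 33.7% and 34.2% at 0 Gy and 35.2% and 34.7% at 10 Gy, and introns overlapped, at 39.7% and 40.4% against 39.4% and 40.3%. Outside the dense regions the intergenic share was 37.9% and 38.4% against 40.3% and 40.1%, and exons held 11.6% and 11.02% against 10.5% and 9.84%. Per kb, exons of protein-coding genes held 2.61 and 2.45 times the end density of introns at 0 Gy and 2.42 and 2.17 times at 10 Gy, outside dense regions.

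Around start sites the direction depended on the repeats. All ends within 1 kb of a start site made up 12.5% and 13.3% at 0 Gy and 13.6% and 15.3% at 10 Gy. The start site of the Gm10800 model lies in the chromosome 2 satellite, and without the dense regions the same class held 4.05% and 3.79% at 0 Gy and 3.40% and 3.31% at 10 Gy. With each position counted once it held 4.16% and 3.82% against 3.44% and 3.45%. In the first 100 bases after the start site of protein-coding genes, outside dense regions, distinct positions per kb and per 1000000 positions of the library were 1.48 and 1.27 at 0 Gy and 1.19 and 0.934 at 10 Gy. In the next 100 bases they were 1.52 and 1.396 against 1.24 and 1.08, the top of the profile in each library. In the bin farthest upstream, 2 kb before the start, the values were 0.596 and 0.581 against 0.579 and 0.532, and in the bin 1 kb before the start 0.513 and 0.527 against 0.422 and 0.441. Both 10 Gy libraries lay below both 0 Gy libraries in 37 of the 40 bins, so the lower density was not confined to the peak, which was present in all 4 libraries.

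**Figure D3:**
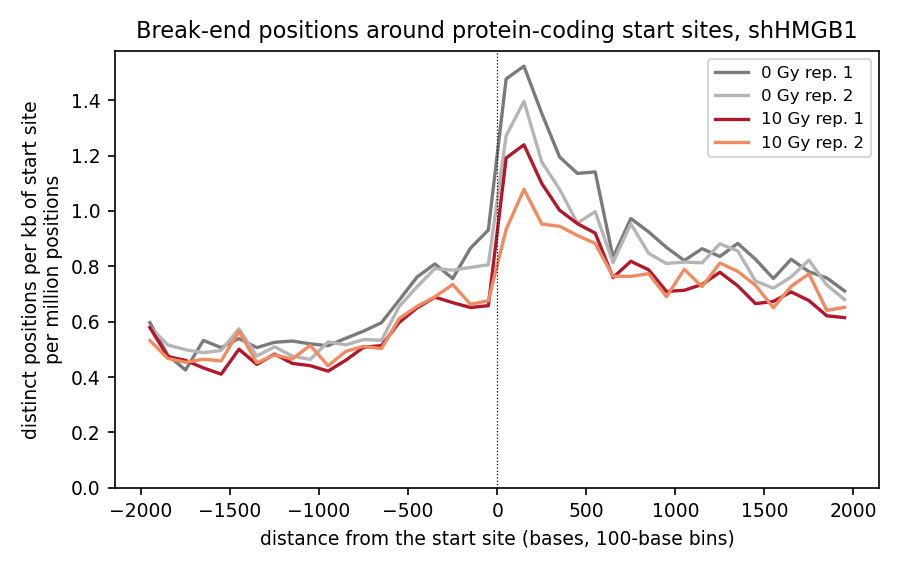
Distinct break-end positions per kb of start site and per 1000000 positions (y axis) in 100-base bins around the start sites of protein-coding genes (x axis, bases, upstream negative), outside dense regions; each line is 1 shHMGB1 library. All 4 lines peak just after the start, at 1.52 and 1.396 for 0 Gy and at 1.24 and 1.08 for 10 Gy, and lie at 0.532 to 0.596 at the far upstream edge.

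Gene-poor sequence took a larger share at 10 Gy and gene-rich sequence a smaller one. Windows of 100 kb that hold no gene contained 17.01% and 17.5% of the ends outside dense regions at 0 Gy and 18.7% and 18.5% at 10 Gy, 1.102 and 1.05 times. Windows of 1 Mb with no protein-coding start site held 7.88% and 8.23% at 0 Gy and 8.77% and 8.65% at 10 Gy. At the other end, windows with 20 or more start sites held 17.6% and 16.96% against 16.1% and 15.97%. The 2 dose groups did not overlap in any of these 3 classes. Over single windows the order was graded: the median log2 fold change was 0.11 for the 291 windows with 0 start sites, 0.07 for 870 with 1 to 4, -0.01 for 631 with 5 to 9, -0.06 for 500 with 10 to 19 and -0.11 for 286 with 20 or more. The quartiles of the first class were -0.01 and 0.21 and those of the last -0.21 and 0.01. Both 10 Gy libraries lay above both 0 Gy libraries in 50.2% of windows without a start site and in 15.4% of those with 20 or more, against 31.3% of all windows; both lay below in 4.81% and 31.8%, against 14.2%. The medians of the first and last class kept their signs under all 14 settings of the fit.

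**Figure D4:**
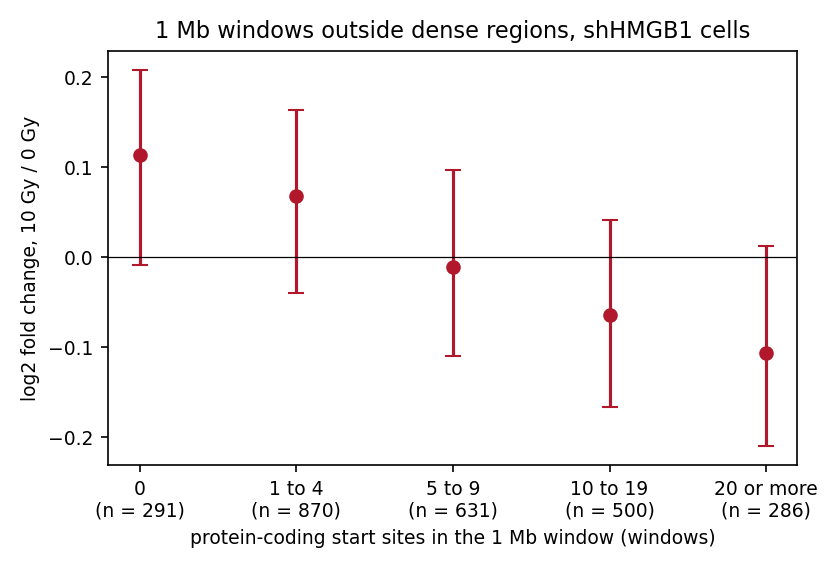
Log2 fold change of ends at 10 Gy over 0 Gy (y axis) for 1 Mb windows outside dense regions, grouped by the number of protein-coding start sites they hold (x axis), shHMGB1 cells; points are medians over windows and bars run from the lower to the upper quartile. The medians go from 0.11 in windows with no start site to -0.11 in windows with 20 or more, with quartiles that overlap between neighbouring classes.

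Whole chromosomes differed by little. Outside dense regions 6 of 21 chromosomes (1, 3, 6, 14, 15 and X) were higher in both 10 Gy libraries and 6 (7, 8, 10, 11, 13 and 17) lower, and the others overlapped. Chromosome 3 held 6.05% and 6.27% at 0 Gy and 6.34% and 6.45% at 10 Gy, and its 0.287 percentage points in replicate 1 was the largest difference of any chromosome within a replicate number. Chromosome 11 held 5.80% and 5.74% against 5.58% and 5.57%, while chromosome 19 overlapped, at 3.67% and 3.64% against 3.58% and 3.66%. Gene density was not compared over whole chromosomes.

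**Figure D5:**
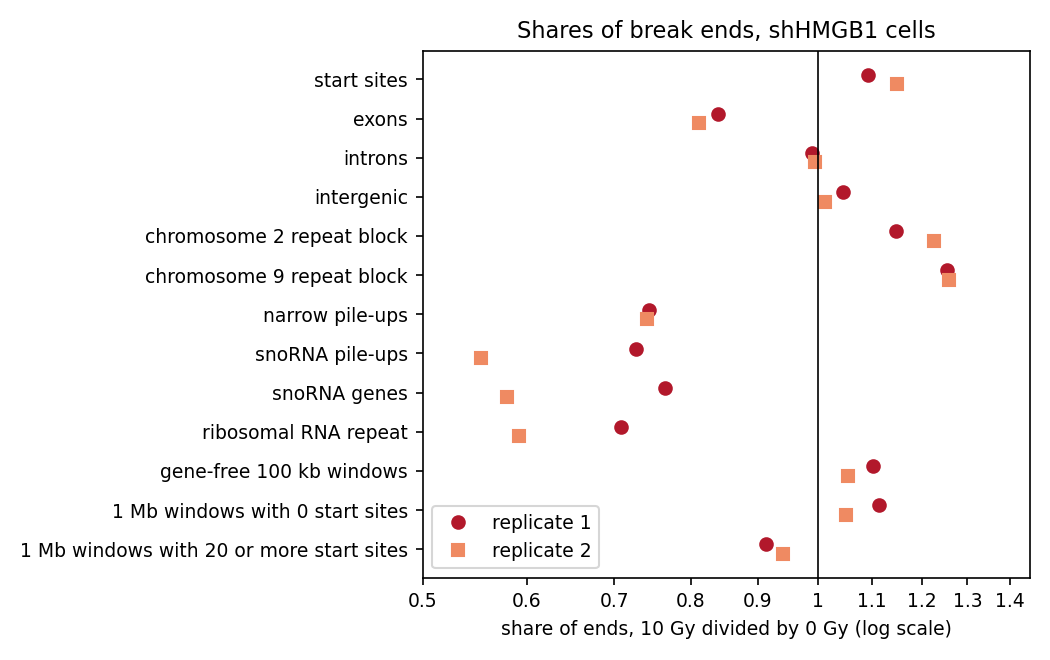
Share of ends at 10 Gy divided by the share at 0 Gy (x axis, log scale) for replicate 1 (circles) and replicate 2 (squares) of shHMGB1 cells; window classes are shares of the ends outside dense regions, the others shares of all ends on the main chromosomes. The 2 repeat blocks lie at 1.15 to 1.26, the narrow pile-ups near 0.74 and the snoRNA genes at 0.765 and 0.579.

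No single gene passed the test. Of 12831 genes with enough ends, 0 were higher and 0 lower (0.0% each) at an adjusted p under 0.05 by edgeR, with 325 (2.53%) at an unadjusted p under 0.05; DESeq2 called 0, with 151. Groups did not overlap upward in 16.7% and downward in 18.6% of genes. By smallest p, Apol8, an apolipoprotein L gene, led the higher side, with 1.446 and 3.40 CPM at 0 Gy and 24.7 and 21.8 at 10 Gy (log2 3.13 ± 0.714 SE, adjusted p = 0.403, edgeR), though a library held as few as 1 end there. Abcb1a, a drug efflux pump, held 5.78 and 6.81 against 27.7 and 24.2 (log2 2.02). Mpp7, a scaffold protein of cell junctions, held 31.8 and 31.8 against 73.2 and 63.0 (log2 1.11). Heca and B4galnt3, a glycosyltransferase gene, had log2 values of 2.12 and 1.88. The other 7 of the 12 were members of the protocadherin alpha cluster, Pcdha2 to Pcdha12, at 1.05 to 1.26; these gene models overlap and share ends, so they are not 7 separate observations. Pcdha2 held 17.4 and 39.7 CPM at 0 Gy and 48.5 and 72.6 at 10 Gy.

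On the lower side the smallest p belonged to Fam57b, with 26.0 and 34.0 CPM at 0 Gy and 8.90 and 7.26 at 10 Gy (log2 -1.86 ± 0.579 SE, adjusted p = 0.999, edgeR). Taco1, an activator of mitochondrial translation, held 121 and 113 against 63.3 and 56.9 (log2 -0.95). Terf2, a telomere-binding protein gene, held 37.6 and 39.7 against 15.8 and 12.1 (log2 -1.43), and Sun1, a protein of the inner nuclear membrane, 73.7 and 70.3 against 43.5 and 29.1 (log2 -0.96). Ehd2, Pcnx3, Slc16a3, a lactate exporter, Gga3, Tm4sf20 and the ribosomal protein gene Rpl21 had log2 values from -1.42 to -0.99. Igf2, a growth factor gene, had a log2 value of -2.78 that rested on 1 library: it held 44.8 CPM in 0 Gy replicate 1 and 3.40, 3.96 and 2.42 in the others, and without that library the value was -0.04. Rhcg, with a log2 value of -3.33, held 18.8 and 6.81 at 0 Gy, 1.98 in 10 Gy replicate 1 and no end in 10 Gy replicate 2. Hmgb1 itself held 34.7 and 48.8 CPM at 0 Gy and 47.5 and 41.2 at 10 Gy (log2 0.09 ± 0.365 SE), with overlap.

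Of the 8 named genes with the most ends at 0 Gy, 5 were lower in both 10 Gy libraries and 3 overlapped. Over all 12831 genes tested, 18.6% were lower in both. The 8 were chosen by their 0 Gy values, which favours lower values at 10 Gy, so the count is no test of dose. Slc36a1 held 6732 and 6509 CPM against 4730 and 4995, and Fam163b 5124 and 4987 against 4019 and 3953; both carry a narrow pile-up described above. Malat1, a nuclear long noncoding RNA gene with very high transcription, held 3834 and 3962 against 3447 and 4238 (log2 -0.01 ± 0.353 SE). Cmss1 and Filip1l overlap each other and share most ends. Cmss1 held 4258 and 1883 CPM at 0 Gy and 3054 and 1310 at 10 Gy (log2 -0.48), with replicate 1 above replicate 2 at each dose and overlap between doses.

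The gene lists other than snoRNA hosts and ribosomal proteins gave no gene past the test either, by edgeR over all genes. Among long genes known as fragile sites, 22 of the 25 tested had a log2 value above 0, with a median of 0.16. Over all 12831 genes tested, 6392 had a value above 0. In both 10 Gy libraries 13 of the long genes were higher (background 16.7%). Gene-poor 1 Mb windows outside dense regions leaned the same way. Without a start site, 73.9% of windows were above 0 and 50.2% were higher in both 10 Gy libraries. With 1 to 4 start sites the values were 68.7% and 40.9%. The sign was thus not particular to the fragile-site genes. Cntnap2, a neuronal adhesion gene, held 392 and 471 CPM at 0 Gy and 559 and 544 at 10 Gy, and Ptprd 457 and 472 against 541 and 473. Macrod2, which carries a narrow pile-up, was the 1 long gene lower in both 10 Gy libraries, at 2733 and 2691 against 2466 and 2534. Neuronal genes had a median of 0.09 with 6 of 18 higher, but Cntnap2 is in both lists, so the lists are not separate observations. Vomeronasal receptor genes, silent in most tissues and clustered in gene families, had a median of 0.25, with 69 of 326 annotated members tested, 44 above 0 and 17 higher in both; these genes are near-copies of each other, so reads may be split among them.

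Genes of the damage response lay around the level of all genes. Of the double-strand break repair list 24 of 30 were tested, 11 had a log2 value above 0 and the median was -0.08. Xrcc4, a ligation factor of end joining, held 256 and 245 CPM at 0 Gy and 214 and 217 at 10 Gy, and Prkdc, its DNA-dependent kinase, 117 and 130 against 120 and 138. The p53 targets had a median of 0.10 over 14 of 25 tested, with Zmat3 at 17.4 and 39.7 against 26.7 and 21.8. The immediate early genes had a median of -0.27 over 13 of 25, where Dusp1, a phosphatase induced by stress, held 280 and 273 against 245 and 159. Highly transcribed genes had -0.09 over 30, collagen and matrix genes -0.18 over 24 and mesothelial genes -0.08 over 10. The HMG protein genes had -0.09 over 12 and zinc finger genes -0.04 over 171. In the collagen and matrix list Thbs1, a matrix glycoprotein, was higher in both 10 Gy libraries, at 374 and 407 against 514 and 487, and Fn1, fibronectin, was lower in both, at 638 and 705 against 627 and 585. Of the 20 blood cell genes 4 were tested, with 86.8 and 102 summed CPM at 0 Gy for the list. Histone genes left 3 tested members and olfactory receptors 10 of 1092.

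Promoters, counted within 1 kb of the start site, gave 398 testable features and none past the test in either direction (0.0%, edgeR, 7 or 1.76% at an unadjusted p under 0.05; DESeq2 0 and 4). The 10 Gy libraries were both above both 0 Gy libraries in 9.8% and below in 27.9%. The median log2 fold change was 0.04 with TMM factors and -0.27 with library totals alone, so directions of promoters are relative to their own median. Thbs1 led the higher side, with 17.4 and 17.02 CPM at 0 Gy and 32.6 and 38.7 at 10 Gy (log2 1.38 ± 0.463 SE). Pdzd8 led the lower side, with 96.9 and 71.5 against 28.7 and 23.0 (log2 -1.36 ± 0.515 SE), and Zbtb37, a zinc finger gene, held 422 and 453 against 273 and 178. Both sides thus hold promoters whose dose groups are apart, at adjusted p of 0.992 (edgeR).

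Windows of 1 Mb gave 2578 features and none past the test (0.0%, edgeR, 76 or 2.95% at an unadjusted p under 0.05; DESeq2 0 and 44). Both 10 Gy libraries were above both 0 Gy libraries in 31.1% of windows and below in 14.5%, while the dense regions as a whole held a smaller share at 10 Gy. The window at chr4:85000001-86000000, with Cntln, Sh3gl2 and Adamtsl1, held 195 and 185 CPM at 0 Gy and 260 and 286 at 10 Gy (log2 0.47 ± 0.158 SE). The one at chr11:111000001-112000000, with the potassium channel genes Kcnj2 and Kcnj16, held 204 and 213 against 306 and 286. On the lower side, the window at chr10:68000001-69000000, with Arid5b and Rtkn2, held 307 and 315 against 228 and 241 (log2 -0.47 ± 0.148 SE). The window at chr5:122000001-123000000, with 21 start sites, held 512 and 466 against 393 and 356.

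The spacing of ends did not separate the doses at short range. After thinning to 415514 distinct positions, the next position lay within 10 bases for 11.3% and 9.22% of positions at 0 Gy and 7.33% and 9.58% at 10 Gy, so replicate 1 differed by -3.93 percentage points and replicate 2 by 0.35. Within 1000 bases the share was 32.2% and 30.3% at 0 Gy and 28.0% and 29.9% at 10 Gy. The median gap was 2837 and 2965 bases at 0 Gy and 3169 and 3058 at 10 Gy. When ends rather than positions were thinned first, the median gaps were 2837 and 2843 bases at 0 Gy and 2861 and 2876 at 10 Gy, without overlap but much closer together. Among intergenic positions alone the doses overlapped, with median gaps of 5428 and 5545 bases against 5610 and 5494. Pairs of positions 1 base apart, outside dense regions, were 46.2 and 39.8 times as frequent per base of distance at 0 Gy as the most distant pairs counted, which lie up to 1000 bases apart, and 33.2 and 43.1 times at 10 Gy, with overlap. At 103 to 112 bases the excess was down to 1.58 and 1.59 at 0 Gy and 1.67 and 1.70 at 10 Gy. From 163 to 172 bases it was 1.19 and 1.24 against 1.21 and 1.29, and from 183 to 192 bases, close to the spacing of nucleosomes, 1.18 and 1.21 against 1.24 and 1.33. Both 10 Gy libraries lay above both 0 Gy libraries in 18 of the 70 distance bins, most of them between 73 and 222 bases, and below in 18 others, so this order was not particular to the spacing of nucleosomes, and it had no test.

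Base composition was measured in promoters only, in 16521 RefSeq windows of 300 bases (GRCm38.p6). Around positions in those windows, 50 bases on each side, G+C was 60.8% and 59.4% at 0 Gy and 58.6% and 58.0% at 10 Gy, against 56.4% for all places in the windows. Positions at 10 Gy thus lay in less G+C-rich promoter sequence in both pairs, by 2.11 and 1.398 percentage points. These values rest on 1249 and 1440 positions at 0 Gy and 1451 and 1150 at 10 Gy.

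The other doses in shHMGB1 cells are given beside these values without a test. The snoRNA genes held 2.57% and 1.43% of ends at 3 Gy and 1.89% and 1.57% at 5 Gy, all below both 0 Gy libraries. The narrow pile-ups held 2.72% and 2.88% at 3 Gy and 2.61% and 1.94% at 5 Gy, also below. The chromosome 9 block held 3.27% and 3.64% at 3 Gy and 2.88% and 3.73% at 5 Gy, all above both 0 Gy libraries, and the values at 10 Gy (2.84% and 3.26%) were not the highest of the 3 doses. All these doses share the same 0 Gy libraries.

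The control hairpin gave the same comparison with its own 4 libraries. In shCTRL cells the snoRNA genes held 2.14% and 3.65% of ends at 0 Gy and 1.63% and 2.36% at 10 Gy, and the chromosome 9 block 3.29% and 2.31% against 4.07% and 2.91%. The narrow pile-ups held 2.80% and 3.74% against 1.97% and 1.91%. Gene-free windows held 18.1% and 15.6% against 19.01% and 17.1%. In shCTRL cells the dose groups overlapped for the snoRNA genes, the chromosome 9 block and the gene-free windows, but not for the narrow pile-ups. The difference between hairpins in the 10 Gy minus 0 Gy change was -0.05 percentage points for snoRNA genes (p = 1), -0.07 for the chromosome 9 block (p = 0.889), 0.46 for the narrow pile-ups (p = 0.444) and 0.12 for gene-free windows (p = 0.944), by exact permutation of hairpin labels within dose over 36 arrangements, n = 2. In edgeR's interaction test no gene of 12831 (0.0%, with 441 or 3.44% at an unadjusted p under 0.05) and no promoter of 398 (0.0%, with 9 or 2.26%) differed between hairpins in its response. The same held for windows, at 0 of 2578 (0.0%, with 49 or 1.9%), for dense regions beside windows, at 0 of 2610 (0.0%, with 47 or 1.8%), and for genes beside small RNA genes, at 0 of 13066 (0.0%, with 427 or 3.27%). These tests do not show that the responses were alike.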

How the data were processed

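Break ends were mapped by BLISS in AB22 cells. The deposited files list positions and the count of distinct molecules ending at each, with no strand. Per the submitters' processing notes, Trimmomatic 0.32, UMI-tools, BWA 0.7.5-r404, SAMtools and bedtools were used with mm10; other settings are not given in the sources used here. From these counts, ends on chromosomes 1 to 19, X and Y were assigned to GENCODE M21 genes, start sites (1 kb on each side), 1 Mb windows and dense regions (clusters that reach 1000 ends or more in some library, with 1 kb on either side). The 4 libraries held 691644 to 1010888 ends. CPM are ends per 1000000 ends of the library. edgeR 4.0.16 (R 4.3.3; TMM factors, filterByExpr, quasi-likelihood test, Benjamini-Hochberg adjusted p under 0.05) was fitted on all 16 libraries in 8 groups; DESeq2 1.42.0 was an alternative. Totals and shares of ends by region were compared by two-sided exact permutation, in Python 3.11.15 with scipy 1.17.1. Spacing and base composition were described by their values per library, without a test. The edgeR fit on genes was also run on simulated counts with a single fixed spread. The other fits were not run on simulated counts.

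The named features were the 12 with the smallest p in each direction (5 for windows), leaving out predicted and gene-free ones, the features of the dense repeats, the 8 genes with the most ends at 0 Gy, up to 3 members of each gene list by number of ends, and Hmgb1; for brevity not every one is printed. The members and lists were chosen with earlier results of these data known, and the fits of dense regions and of small RNA genes, the split of host genes, the thinning of ends before spacing and the use of promoter windows for base composition were added after the data were seen. Whether replicate numbers pair libraries was not settled, although the ribosomal RNA repeat kept the same replicate order at 0 and 10 Gy with both hairpins. Ends on mitochondrial DNA and unplaced scaffolds stayed out of the fits. Alternatives were other normalization, filters, sets of libraries, a replicate block, distinct positions, ends outside dense regions and leaving out each library. Base composition across the genome and repeat annotation were not analysed here. Results at some items are not reported here.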

Additional observations from a re-analysis of the deposited data

Results flagged for a closer look

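Signal outside the main chromosomes, which no comparison used, was higher at 10 Gy than in the unirradiated libraries. Mitochondrial DNA held 0.297% and 0.261% of ends at 0 Gy (mean 0.279%) and 0.427% and 0.322% at 10 Gy (mean 0.374%). Both 10 Gy libraries exceeded both unirradiated ones. The other shHMGB1 doses held 0.276% and 0.257% at 3 Gy, not above 0 Gy replicate 1, and 0.441% and 0.339% at 5 Gy. In shCTRL cells the share was 0.369% and 0.217% at 0 Gy and 0.356% and 0.301% at 10 Gy, with overlap. Unplaced scaffolds held 0.516% and 0.511% at 0 Gy (mean 0.513%) and 0.541% and 0.641% at 10 Gy (mean 0.591%) in shHMGB1 cells, again without overlap. At 5 Gy they held 0.453% and 0.596%, so replicate 1 lay below both 0 Gy libraries. With 2 libraries a group neither difference can pass an exact test.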

How the results depend on the processing

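Of 150 alternative values for the comparisons, 141 stayed the same and 9 moved. A value stayed the same if it lay within the SD between replicates of the main value. For numbers of features past the test, the number had to be equal. Of 526 values for single named genes and promoters, 483 lay within the SE of the main log2 value and 43 moved. These rules do not check direction, and the causes of the moves were not tested. Genes past the test numbered 0 to 1 when each library was left out in turn; without 0 Gy replicate 2 Gm49394 passed (log2 -3.67, adjusted p = 0.0422, edgeR). In dense regions beside windows the count was 8 with only the 4 libraries and 1 with the replicate block. Genes with small RNA genes gave 5 with the replicate block, among them Apol8, higher, and Gm26224, Snord45b and Gm22455, lower (adjusted p = 0.0466, edgeR). Replicate numbers of 0 and 10 Gy correlated at 0.031 over 12831 genes. Single genes can hold few ends, so this value cannot decide whether replicate numbers pair the libraries. In shHMGB1 cells the ribosomal RNA repeat had a larger share in replicate 1 at 0, 3, 5 and 10 Gy. It did so in shCTRL cells at 0 Gy (6.22% and 3.57%) and 10 Gy (3.62% and 1.94%). The chromosome 9 block was higher in replicate 2 in shHMGB1 cells and in replicate 1 in shCTRL cells at 0 and 10 Gy. What the replicate number stands for was not tested. The replicate block left genes, promoters and windows at 0 calls. The mean difference for start sites was -0.54 percentage points with distinct positions and -0.56 outside dense regions, and that for intergenic sequence was 2.26 and 1.99, against 0.97 for all ends. The mean difference in neighbours within 1000 bases was 1.33 percentage points without thinning, opposite in sign to the thinned values of -4.16 and -0.31; its replicates were 3.73 and -1.06, and the doses overlapped. The median of snoRNA genes stayed below 0 in all 13 settings (-0.72 to -0.19). Base composition over the whole genome was not run.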
